A study of Salmo salar with 12 samples.

Results

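The microRNAs (miRNAs) described here belong to the miR-17, miR-18, miR-19, miR-20, miR-93 and miR-106 families of Atlantic salmon (Salmo salar). They were selected on name and on measured counts from a table of mature salmon miRNAs, requiring a -5p or -3p arm, no locus number and at least 500 counts summed over all libraries. By this rule 4 of the 361 listed miRNAs were selected, namely ssa-miR-17-5p, ssa-miR-19d-5p, ssa-miR-20a-5p and ssa-miR-93a-5p. The table held 20 rows of these 6 families, 15 of them without a locus number, and 13 of the 20 had a count in at least 1 library. The sums of the selected miRNAs were 1608, 10496, 951 and 4908 counts in the order given, and the nearest row without a locus number below the limit, ssa-miR-18a-5p, summed to 325. All 4 reached the limit in the head kidney libraries alone, with 749 to 10493 counts there and 0 to 202 counts in the intestinal libraries. The number of selected miRNAs that were lower in the intestine therefore carries no weight of its own.

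Small RNA was sequenced from adherent intestinal cells (AIC, 6 libraries) and from adherent head kidney cells (AKC, 6 libraries). The AIC came from the distal intestine and the AKC from the head kidney, the main blood-forming organ of bony fish, of seawater-reared post smolts of about 550 g that had been starved for 24 h. No strain, age or treatment other than the tissue separated the groups. The labels call both isolates leukocytes. In both, the cells were left to adhere for 2 days at 12°C, and the whole adherent pool was used without sorting, so each library is a mixture of cell types. In such bulk RNA, fewer cells of a type cannot be told apart from less RNA per cell. Total counts ran from 2253241 to 11804738 in AIC and from 5791812 to 19586480 in AKC, so the deeper group was AKC. Levels are given as CPM, counts per 1000000 after TMM scaling of the library size. At most 3 counts in a library, which is 0.417 to 1.59 CPM in AIC and 0.105 to 0.492 CPM in AKC, were taken as the floor of detection. This floor covers counting error only, because the authors describe no step that removed PCR copies.

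The marker miRNAs were read first to check the labels. The summed level of 19 rows of epithelial and endocrine miRNAs (miR-192, miR-194, miR-200, miR-429 and miR-375) was between 249270 and 478130 CPM in AIC and between 58.5 and 245.03 CPM in AKC, and its 5 tested rows were all called higher in AIC. Of all 76 tested miRNAs, 17.1% were called higher and 9.21% lower in AIC. Most of the AIC sum was miR-375, at 237710 to 466190 CPM. In AIC miR-192 was at 3545 to 6749, miR-194 at 441 to 1710, miR-200 at 3540 to 4851 and miR-429 at 0 to 97.7 CPM. For 8 leukocyte rows (miR-142, miR-150, miR-155 and miR-146) the summed level was between 2682 and 30319 CPM in AIC and between 9072 and 24307 CPM in AKC, with 1 of 3 tested rows called lower in AIC. The called row was ssa-miR-155-5p (log2 fold change -3.43, adjusted p = 0.00858, edgeR). miR-155 was at 6.67 to 430 CPM in AIC and at 531 to 4972 CPM in AKC. miR-150 overlapped, at 2409 to 29752 CPM in AIC and 8088 to 22194 CPM in AKC. So did miR-146, at 79.3 to 271 CPM in AIC and 37.5 to 1301 CPM in AKC. Of the other leukocyte markers, miR-142 had no count in any AKC library and in 4 AIC libraries, and miR-223 had no row in the table. Both erythroid miR-144 rows were at 0 in all 12 libraries. The stromal and endothelial list (miR-143, miR-145, miR-199, miR-214 and miR-126) was between 0 and 190.2 CPM in AIC and between 5.22 and 111 CPM in AKC. Within it, miR-199 had no count in the 6 AIC libraries and 4.85 to 47.7 CPM in AKC. In a fit without a filter on low counts ssa-miR-199a-5p was called lower in AIC (log2 fold change -10.94, adjusted p = 0.0391, edgeR). ssa-miR-199a-3p was not called there (-9.48, adjusted p = 0.0711, edgeR). The rest of the list differed from miR-199. miR-126 reached 190.2 CPM in AIC and 68.9 CPM in AKC, and miR-143 reached 9.45 and 8.82 CPM, both at 0 in most libraries. miR-145 and miR-214 had no count in any library. Epithelial and endocrine markers were thus higher in AIC, and miR-155, unlike the rest of the leukocyte list, was higher in AKC. miR-199, unlike the rest of its list, had counts in every AKC library and in no AIC library. The part of any of these in the differences described below was not tested.

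In vertebrates these miRNAs are made from a few long precursor transcripts, each cut into several hairpins. The miR-17-92 cluster yields miR-17, miR-18, miR-19, miR-20 and miR-92a, a paralogous cluster yields miR-106a with miR-20b and miR-92a, and another one in an intron of the replication gene MCM7 in mammals yields miR-106b, miR-93 and miR-25. miR-17, miR-20, miR-93 and miR-106 share a seed, the part of a miRNA that pairs with its targets, whereas miR-18 and miR-19 each have another. In mammals the clusters are induced by MYC and E2F factors and are known for promoting proliferation and survival of blood cell progenitors. In human cells, miR-17, miR-20a and miR-106a decline during differentiation of the monocyte lineage. These roles are known from mammals and were not examined in the salmon cells.

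ssa-miR-19d-5p was nearly absent from AIC and present in every AKC library. It had 0, 0, 0, 0, 2 and 1 counts in AIC replicates 1 to 6, against 2624, 1091, 1069, 1028, 1600 and 3081 counts in AKC replicates 1 to 6. The groups did not overlap, and no library lay between 2 and 1028 counts. As a level, this was 0.232 ± 0.394 CPM in AIC and 118 ± 49.97 CPM in AKC (SD, n = 6 each). Within AKC its level was lowest in replicate 2, at 63.8 CPM, and highest in replicate 6, at 188 CPM. The miRNA fell in AIC by the quasi-likelihood test of edgeR, with a fitted log2 fold change of -9.21 ± 1.52 (SE; Benjamini-Hochberg adjusted p = 0.000294). Because a fitted value against so few counts depends on the prior count, the pooled counts were also compared, with 3 counts over all AIC libraries and 10493 over all AKC libraries. Per TMM-scaled library size the pooled level was 875-fold higher in AKC, with an exact 95% interval for counting error only from 299.4 to 4245. With unscaled totals the same ratio was 1672 and with the mapped reads of each library as its size 2016.

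**Figure D1:**
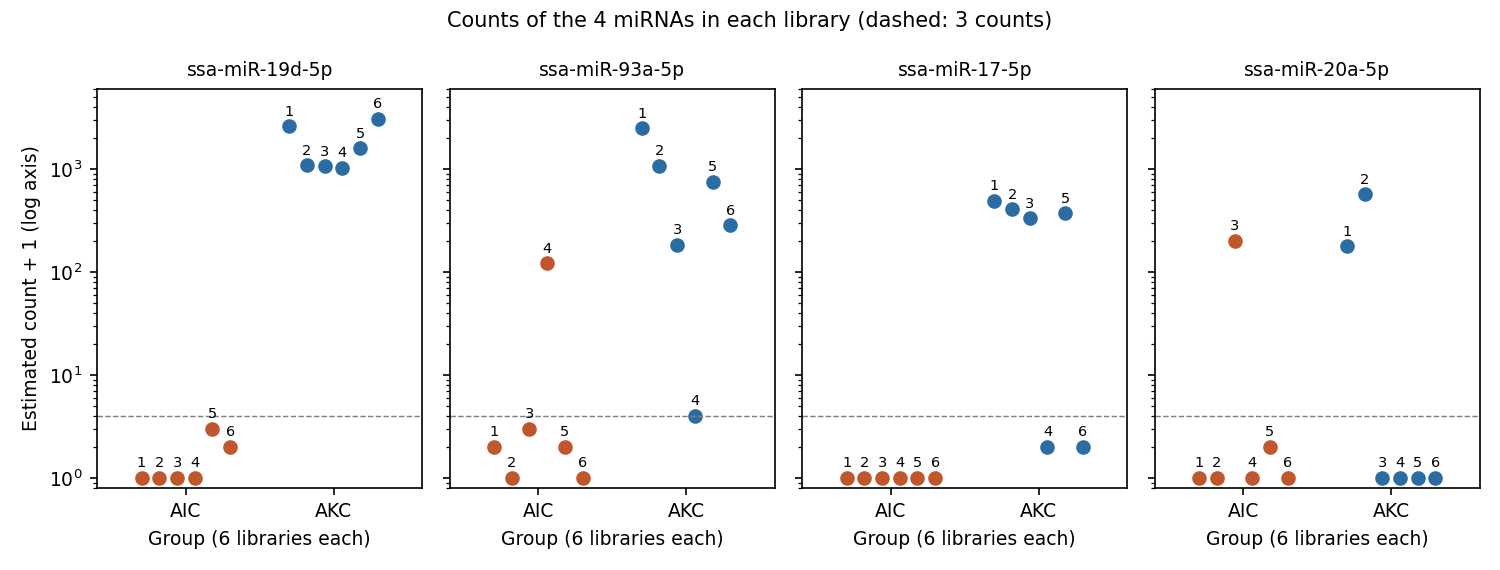
Estimated counts of the 4 miRNAs in each library, plotted as count + 1 on a log axis, with AIC left of AKC, each point 1 library labelled by its replicate number and the dashed line at 3 counts. ssa-miR-19d-5p separates the groups, with at most 2 counts in AIC and at least 1028 in AKC, while AIC replicate 4 and AKC replicate 4 cross over for ssa-miR-93a-5p.

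Across the whole table, 20 of 76 tested miRNAs were called, meaning an adjusted p below 0.05 with a fold change of at least 2 either way, a share of 26.3%. Lower in AIC were 7 of the 76, or 9.21%, and 13, or 17.1%, were higher. All AIC libraries lay below all AKC libraries in 8 of the 76, or 10.5%. A pattern of at most 3 counts in every AIC library together with over 10 counts in every AKC library was found for 1 of the 76, or 1.32%, and that one was ssa-miR-19d-5p. This last description was chosen after the values had been seen. With unscaled totals 9 were higher and 20 lower, and the median log2 fold change of all tested miRNAs was -0.65, against 0.09 with TMM scaling.

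The counts of ssa-miR-19d-5p were also set against the depth of each library. At the mean AKC level, AIC replicates 1 to 6 would have held 222, 487, 744, 847, 248 and 265 counts. At the lowest AKC level they would have held between 120 and 459 counts, against the 0 to 2 observed. AIC replicates 2, 3 and 4, with totals of 6108921, 6713555 and 11804738, were deeper than AKC replicate 4, with 5791812, and had 0 counts against its 1028. After all libraries had been thinned at random to 2253241 counts, ssa-miR-19d-5p had 0 to 2 counts in AIC and 185 to 536 counts in AKC.

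ssa-miR-93a-5p, which shares its seed with miR-17, was high in most AKC libraries but did not separate the groups. Its counts were 1, 0, 2, 120, 1 and 0 in AIC replicates 1 to 6, and 2479, 1081, 184, 3, 753 and 284 in AKC replicates 1 to 6. AIC replicate 4 was thus far above the other AIC libraries, and AKC replicate 4 was down at the floor. The levels were 2.999 ± 6.70 CPM in AIC and 39.2 ± 33.6 CPM in AKC (SD, n = 6 each). At 16.7 CPM, AIC replicate 4 was above AKC replicates 3 and 4, at 13.9 and 0.492 CPM, and just under AKC replicate 6, at 17.3 CPM. Its log2 difference of -3.67 (95% interval -7.36 to 0.03) did not exceed the library spread (Benjamini-Hochberg adjusted p = 0.119, edgeR). It was called without AIC replicate 4 (-7.22, adjusted p = 0.00868 in edgeR), with unscaled totals (-4.90, adjusted p = 0.0384 in edgeR), with mapped reads as library size (-5.11, adjusted p = 0.0331 in edgeR), by DESeq2 (-4.00, adjusted p = 0.0232) and by an exact permutation test on log2 CPM (-4.69, adjusted p = 0.0360). The fit without AIC replicate 4 called 8 of the 76 lower in AIC, beside 7 in the main fit. The other settings called more miRNAs lower in general, 26.3% of the 76 with unscaled totals, 24 of the 76 with mapped reads, 21.1% by DESeq2 and 18.4% by permutation. Over all 23 alternatives the adjusted p ran from 0.00868 to 0.203.

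Counts of ssa-miR-93a-5p also divided by library depth. In the 6 libraries with the largest totals, 1 of AIC and 5 of AKC, it had between 120 and 2479 counts. The 6 libraries with the smallest totals, 5 of AIC and 1 of AKC, had at most 3 counts. The split at a total between 6713555 and 7885413 was seen in the data and not fixed beforehand. Thinning to 2253241 counts left 26 counts in AIC replicate 4 and at most 1 in the other AIC libraries, against 43 to 284 counts in 5 AKC libraries and 1 in AKC replicate 4. The part of depth in these counts was not tested. ssa-miR-19d-5p had no such division, with 0 counts in the deepest AIC library and 1028 in the shallowest AKC library.

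**Figure D2:**
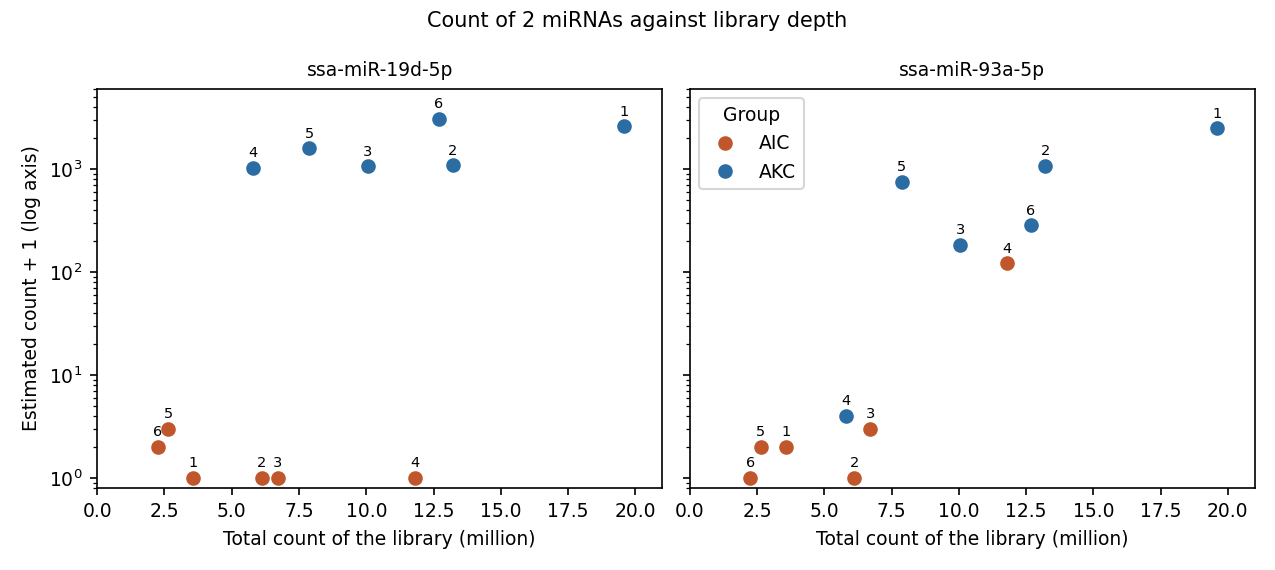
Estimated count + 1 (log axis) of ssa-miR-19d-5p and ssa-miR-93a-5p against the total count of each library in units of 1000000 counts, with AIC and AKC in different colours and replicate numbers beside the points. ssa-miR-19d-5p divides by tissue, also among the libraries between totals of 5791812 and 11804738 where both groups are present, whereas ssa-miR-93a-5p is at 120 counts or more in the 6 deepest libraries and at 3 or fewer in the others.

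ssa-miR-17-5p, after which the cluster is named, was found in AKC only, but not in all AKC libraries. It had 0 counts in each of the 6 AIC libraries, and 492, 408, 332, 1, 374 and 1 counts in AKC replicates 1 to 6. AKC replicates 4 and 6, with 1 count each, differed from AIC by less than the floor, while the 4 others lay between 17.2 and 26.5 CPM. The mean was 0 CPM in AIC and 15.5 ± 12.3 CPM in AKC (SD, n = 6 each). A count of 0 over the pooled AIC libraries allows up to 3 counts, or 0.126 CPM. Against this floor the pooled level was at least 134-fold lower in AIC, a bound for counting error only and not for the spread between libraries. With unscaled totals this bound was 256.

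Because of the many values at the floor, ssa-miR-17-5p was not kept by the low-count filter, and only fits without that filter gave a p. edgeR's quasi-likelihood test on all 180 miRNAs with a count did not call it (adjusted p = 0.0522), in a fit that called 5% lower in AIC. DESeq2 on the same rows called it (adjusted p = 4.56e-05), where 17.2% of 134 miRNAs with an adjusted p were called lower. An exact permutation test on log2 CPM, two-sided, gave p = 0.00216, the smallest that 6 against 6 libraries allow, and 0.0205 after Benjamini-Hochberg adjustment over the 180. That smallest p was reached only because AKC replicates 4 and 6 held 1 count each against 0 in AIC, a difference below the floor. The permutation test called 5% of the 180 lower in AIC. Without AKC replicate 4 or replicate 6, both with 1 count, edgeR called ssa-miR-17-5p (adjusted p = 0.0451 and 0.0492). Of 20 alternatives in all, 7 called it and 13 did not, with adjusted p from 4.56e-05 to 0.281.

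ssa-miR-20a-5p, a seed relative of miR-17 from the same precursor in other vertebrates, was present in single libraries of both groups. Its counts were 0, 0, 201, 0, 1 and 0 in AIC replicates 1 to 6, and 177, 572, 0, 0, 0 and 0 in AKC replicates 1 to 6. Only 1 AIC library and 2 AKC libraries were above the floor, and the groups overlapped throughout. The levels were 5.38 ± 12.9 CPM in AIC and 6.61 ± 13.4 CPM in AKC (SD, n = 6 each), with 31.8 CPM in AIC replicate 3 alone and 33.4 CPM in AKC replicate 2. It did not pass the filter either. In the unfiltered edgeR fit it was at 0.53 ± 2.89 on the log2 scale (SE; adjusted p = 0.934), opposite in sign to the difference of the mean CPM, and -5.13 without AIC replicate 3, with an adjusted p of 0.340 in edgeR. At this spread no difference was detectable.

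The values of these 4 miRNAs were either at the floor or well above it. Of their 48 values, 20 were 0, 9 were from 1 to 10, none (0) was from 11 to 100 and 19 were over 100. Among 70 other miRNAs of the table with sums in the same range, 50.1% of values were 0, 9.17% from 1 to 10, 5.00% from 11 to 100 and 35.7% over 100. A gap between floor and signal was therefore not particular to these families.

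Each remaining row of the families exceeded 10 counts in at most 2 libraries. ssa-miR-18a-5p had 319 counts in AKC replicate 6, and 5 or fewer elsewhere. The rows named ssa-miR-20a-2-3p and ssa-miR-20a-3-3p, opposite arms from numbered miR-20a loci, had 281 counts in AKC replicate 6 and 326 in AKC replicate 1, with at most 1 elsewhere. ssa-miR-106b-5p had 222 counts in AKC replicate 2 and 3 in AKC replicate 5, and ssa-miR-106a-5p had 110 in AKC replicate 5 alone. These 2 are the members that give the paralogous clusters their names. ssa-miR-19a-3p had 19 counts in AIC replicate 4 and 85 in AKC replicate 1, and ssa-miR-19c-5p had 12 in AKC replicate 5. Both ssa-miR-20b rows had 1 count, and 7 rows, among them ssa-miR-17-3p and ssa-miR-18b-5p, had none.

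**Figure D3:**
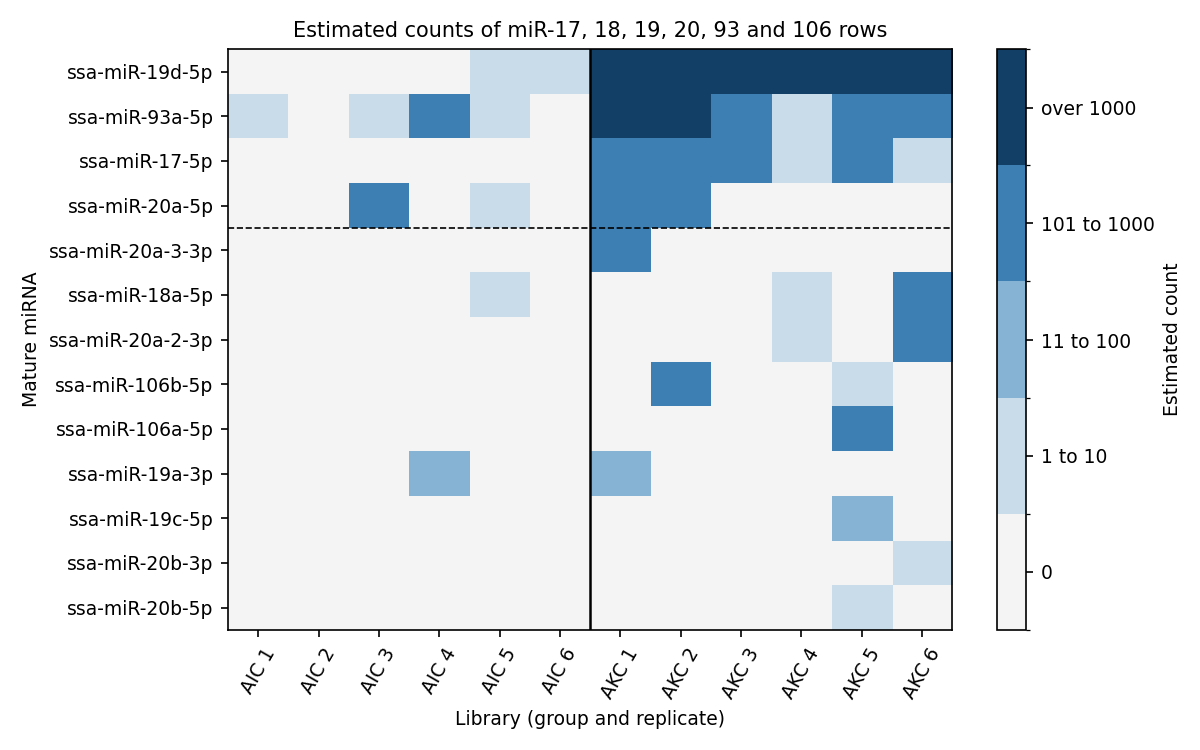
Estimated counts of the 13 family rows with any count, shown in 5 colour classes from 0 to the highest counts, with miRNAs down the page by total count and libraries across, AIC left of AKC. The 4 selected miRNAs are above the dashed line, and of the rows below it none has over 10 counts in more than 2 libraries.

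Counted together, over 10 counts were reached by 0, 0, 1, 2, 0 and 0 of the 20 family rows in AIC replicates 1 to 6, and by 6, 5, 3, 1, 5 and 4 rows in AKC replicates 1 to 6. The summed level of the families was 0.530, 0, 32.1, 19.3, 2.37 and 0.444 CPM in AIC replicates 1 to 6, against 216, 197, 120, 170.1, 202 and 242 CPM in AKC replicates 1 to 6. The AIC sums rested on ssa-miR-20a-5p in replicate 3 and on ssa-miR-93a-5p in replicate 4. In AKC replicate 4, ssa-miR-19d-5p made up 1028 of 1038 family counts, and ssa-miR-93a-5p and ssa-miR-17-5p were at the floor.

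The 5p arm held 96.3% of the family counts. For miR-19 the 3p arm is the one usually described as the main product in mammals, yet the miR-19 rows of the table held 22 counts in AIC and 10590 in AKC, of which 104 in all were on 3p rows. No 3p row of miR-19d was in the table, so the ratio of its arms could not be measured. Mature sequences in these families differ by few bases, and reads of one could have been counted on another. In the 4 selected rows 0 of the 48 values had a fraction, as reads split between rows would give. In the table, 12 other rows, ssa-miR-19a-3p among them, did hold fractions. A read counted wholly on the wrong row would leave no fraction, so such miscounting was not tested.

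The ratio to ssa-miR-92a-3p, a member of the same vertebrate clusters, was then taken within each library, since such a ratio needs no scaling between libraries. ssa-miR-92a-3p itself was abundant in both groups, with 199184 to 684475 counts in AIC and 1501788 to 5080331 counts in AKC. ssa-miR-19d-5p had 0, 0, 0, 0, 7.96 and 3.82 counts per 1000000 counts of ssa-miR-92a-3p in AIC replicates 1 to 6, against 517, 255, 295, 685, 668 and 903 in AKC replicates 1 to 6. The AIC mean was 0.355% of the AKC mean, or 0.138% without AIC replicate 5, and the groups did not overlap. With ssa-miR-25-3p, ssa-let-7a-5p or the table total as denominator the groups did not overlap either, and the AIC mean was 0.515%, 0.111% and 0.127% of the AKC mean. In CPM, 8 of the 76 tested miRNAs, or 10.5%, lay lower in all AIC libraries than in all AKC libraries. That share was not counted on these ratios, here or for the miRNAs below, so the lack of overlap has no background on them.

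For ssa-miR-93a-5p the ratio to ssa-miR-92a-3p was 31.2 ± 70.6 in AIC and 198 ± 186 in AKC (SD, n = 6 each), and the groups overlapped, with 175 in AIC replicate 4 and 2.00 in AKC replicate 4. ssa-miR-25-3p, which shares its seed with miR-92a and a mammalian precursor with miR-93, had 3124 ± 1475 counts per 1000000 of ssa-miR-92a-3p in AIC and 2899 ± 1438 in AKC (SD, n = 6 each). Its ratios overlapped over most of their range, from 1755 to 5755 in AIC and from 1744 to 5367 in AKC. Relative to ssa-miR-92a-3p, ssa-miR-19d-5p was thus lower in every AIC library than in any AKC library, whereas ssa-miR-25-3p was not. Which of these miRNAs share a precursor in salmon was not examined. ssa-miR-92a-5p, the opposite arm of ssa-miR-92a-3p, did not overlap on this ratio either, at 0 to 655 in AIC and 683 to 1878 in AKC. Per 1000000 counts of the table total, ssa-miR-25-3p itself did not overlap, at 141.2 to 402 in AIC and 568 to 1392 in AKC.

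**Figure D4:**
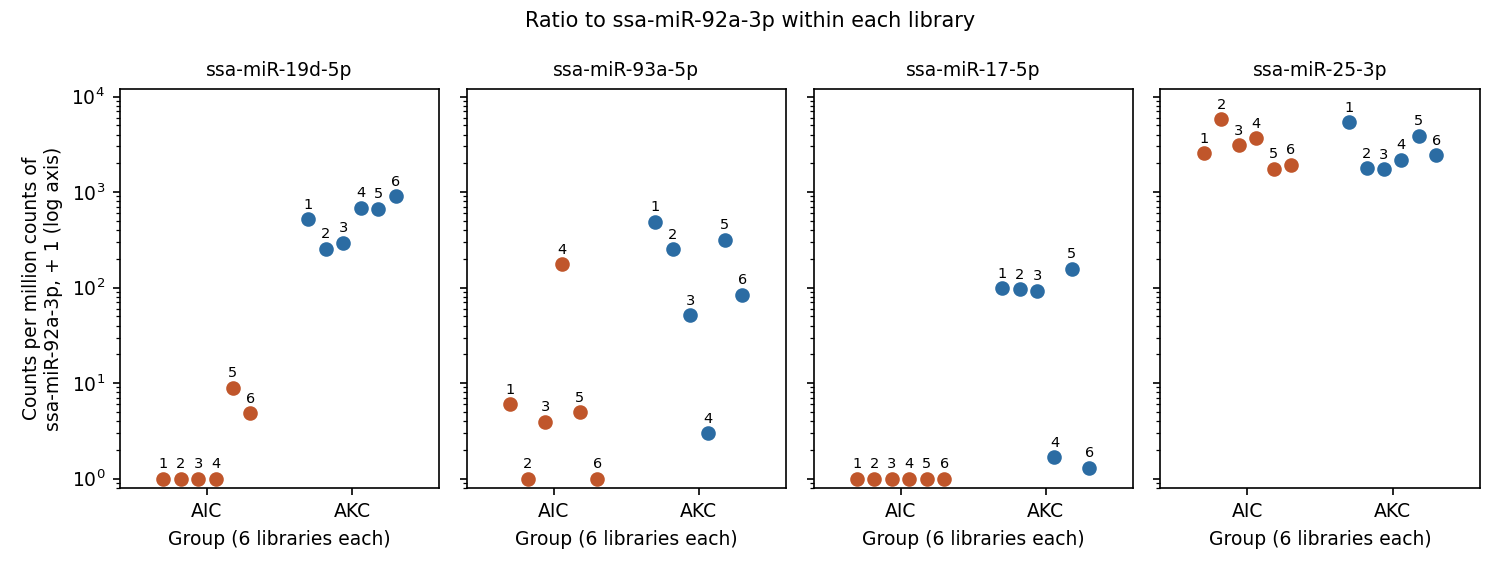
Counts of 4 miRNAs per 1000000 counts of ssa-miR-92a-3p in the same library, plotted + 1 on a log axis, with AIC left of AKC and each point 1 library with its replicate number. ssa-miR-19d-5p reaches at most 7.96 in AIC and at least 255 in AKC, while the ssa-miR-25-3p ratios of both groups cover about the same range.

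Of the 28 rows of the clusters with miR-92 and miR-25 included, 8 passed the filter, among them 2 of the selected miRNAs. In edgeR's test, 2 of the 8 were called lower in AIC, ssa-miR-19d-5p and ssa-miR-92a-3p, and 0 were called higher, also 0 at an unadjusted p below 0.05 and 0 by DESeq2, against 9.21% lower and 17.1% higher of all tested miRNAs. All 8 had a negative log2 fold change, with a median of -3.45, beside 37 negative values and a median of 0.09 over the 76 tested. Over 10 counts were reached by ssa-miR-19d-5p in 0 AIC and 6 AKC libraries, and by ssa-miR-93a-5p in 1 and 5. For ssa-miR-92a-5p and ssa-miR-92a-4-5p it was 2 and 6. Such rows passed the filter mainly through AKC, so their negative sign carries no weight of its own. The list was chosen with results known and got no test of its own. ssa-miR-92a-3p, the most abundant row of the list, was at -1.04 on the log2 scale (interval -1.43 to -0.64, adjusted p = 0.000498, edgeR). It was not called without AKC replicate 3. ssa-miR-92a-5p, its opposite arm, was at -3.98 and ssa-miR-25-3p at -0.86, with adjusted p of 0.0660 and 0.166 in edgeR. The number called lower was 7 of the 8 with unscaled totals, with mapped reads as library size and by DESeq2. Over all 76, these settings called 20, 24 and 16 lower, the last being 21.1%.

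**Figure D5:**
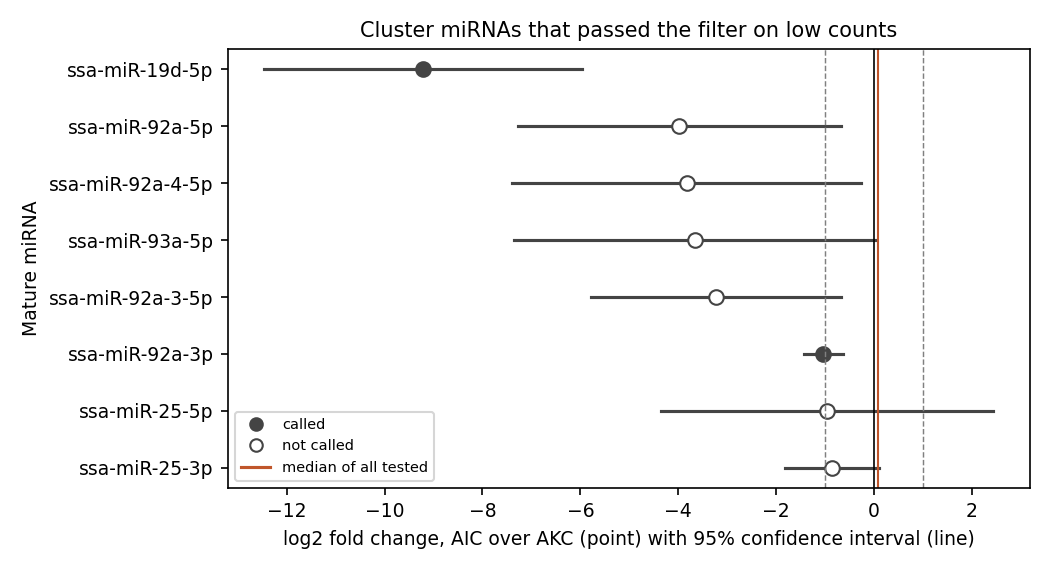
log2 fold changes, AIC over AKC, of the 8 cluster miRNAs that passed the filter, with 95% confidence intervals as lines, filled points for called and open points for not called miRNAs, dashed lines at -1 and 1 and an orange line at the median of all 76 tested. All 8 points lie left of 0, from -9.21 for ssa-miR-19d-5p to -0.86 for ssa-miR-25-3p, and the intervals of ssa-miR-93a-5p, ssa-miR-25-5p and ssa-miR-25-3p reach past 0.

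Within AKC ssa-miR-19d-5p did not rise and fall together with ssa-miR-93a-5p or ssa-miR-17-5p. The coefficient of variation of the level over the 6 AKC libraries was 42.4% for ssa-miR-19d-5p, 85.8% for ssa-miR-93a-5p, 79.6% for ssa-miR-17-5p and 203% for ssa-miR-20a-5p, beside a median of 60.5% over the tested miRNAs. Per 100 counts of ssa-miR-19d-5p, the count of ssa-miR-93a-5p was 94.5, 99.1, 17.2, 0.292, 47.1 and 9.22 in AKC replicates 1 to 6. For ssa-miR-17-5p it was 18.8, 37.4, 31.1, 0.0973, 23.4 and 0.0325. ssa-miR-17-5p was thus lowest against ssa-miR-19d-5p in AKC replicates 4 and 6, the libraries with the highest ssa-miR-19d-5p levels. Over these 6 libraries the correlation of log2 CPM was -0.60 between ssa-miR-19d-5p and ssa-miR-93a-5p, -0.89 between ssa-miR-19d-5p and ssa-miR-17-5p and 0.70 between ssa-miR-93a-5p and ssa-miR-17-5p (Pearson, with Spearman's rho of -0.43, -0.60 and 0.20). These values are descriptions of 6 points that share each library's depth and scaling. Those with ssa-miR-17-5p include AKC replicates 4 and 6, where it had 1 count each, which is at the floor. Those with ssa-miR-93a-5p include AKC replicate 4, where it had 3 counts, also at the floor.

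The miRNAs whose log2 CPM was most like that of each selected miRNA were sought among the tested ones, 75 or 76 candidates for each. Those named have the highest of so many correlations, within AKC over only 6 libraries. How high the highest would be among unrelated miRNAs was not tested. Over all 12 libraries ssa-miR-19d-5p was most like ssa-miR-92a-3p, ssa-miR-181c-5p and ssa-miR-92a-4-5p (Pearson's r of 0.93, 0.88 and 0.82). The difference between the tissues makes up most of such a correlation, and within the 6 AKC libraries r between ssa-miR-19d-5p and ssa-miR-92a-3p was -0.22. There it was most like ssa-miR-181a-5p, ssa-miR-15a-5p and ssa-let-7j-5p (r of 0.92, 0.86 and 0.63). ssa-miR-93a-5p was most like ssa-miR-15c-5p, ssa-miR-92a-5p and ssa-miR-181c-5p over 12 libraries (r of 0.73, 0.73 and 0.69) and like ssa-miR-10b-5p, ssa-miR-128-3p and ssa-miR-29a-5p within AKC (r of 0.91, 0.88 and 0.86). Spearman's rho within AKC was 0.83, 0.94 and 0.26 for these, and ssa-miR-93a-5p was at the floor in AKC replicate 4, with 3 counts. ssa-miR-17-5p was most like ssa-miR-93a-5p, ssa-miR-21a-5p and ssa-miR-19d-5p over 12 libraries (r of 0.78, 0.75 and 0.69). Within AKC it was most like ssa-miR-181b-5p, ssa-miR-375-3p and ssa-miR-93a-5p (r of 0.79, 0.74 and 0.70, with Spearman's rho of 0.94, 0.77 and 0.20). It had 1 count each in AKC replicates 4 and 6, which is at the floor. For ssa-miR-20a-5p the closest were ssa-miR-99-5p over 12 libraries (r of 0.63) and ssa-miR-155-5p within AKC (r of 0.92), where 4 of its 6 values were 0.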

How the data were processed

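The authors trimmed adapters with Cutadapt (1.12 in the submitters' processing notes), dropped reads of low quality (FASTX-Toolkit) and used miRDeep2 to align the rest to the ICSASG_v2 assembly and to quantify miRBase entries of salmon. The authors deposited one table of estimated counts per mature miRNA and library, not normalized, made from 50 ng of RNA and 25 PCR cycles per library. Counts were rounded to whole numbers. edgeR 4.0.16 (R 4.3.3, limma 3.58.1) filtered them with filterByExpr (minimum count 10, 76 miRNAs kept), scaled them with TMM and tested AIC against AKC with the quasi-likelihood test, with a call where the adjusted p was below 0.05 and the fold change at least 2 either way. The standard error was the log2 fold change over the square root of its F, so that the interval matches the test. log2 CPM used a prior count of 2.

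Alternatives were DESeq2 1.42.0, exact permutation over 924 splits, other library sizes (unscaled totals, totals without the 5 most abundant miRNAs, DESeq2 size factors, the mapped reads given with the paper), no filter, at least 10 counts in 6 libraries, a replicate block, thinning and leaving out each library. For ssa-miR-17-5p and ssa-miR-20a-5p, which did not pass the filter, these were combined with no filter, a choice made after seeing the data. The fit was checked on simulated data in which as many miRNAs rose as fell. No miRNA was set to 0 in a whole group there, so rows like ssa-miR-17-5p were not covered by that check. The families, lists and tests were chosen with earlier results of these data known. Named are the selected miRNAs, all family rows with over 3 counts in a library, ssa-miR-92a-3p, ssa-miR-92a-5p, ssa-miR-25-3p and the 3 most similar tested miRNAs; other names were added after their values were seen. The replicate numbers of the titles are not stated to pair the libraries, and correlations between the deviations of same-numbered libraries from their group means were between -0.118 and 0.0717. Python 3.11.15, NumPy 2.4.6, pandas 2.3.3, SciPy 1.17.1 and Matplotlib 3.10.9 were used for tables and plots.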

Additional observations from a re-analysis of the deposited data

Results flagged for a closer look

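In 13 of 24 groups of 6 libraries checked, 1 library lay far from the others of its group. Chance flags about 1 in 20 groups of continuous values, a rate that does not hold here, since a row with counts in a single library of a group is flagged by construction. Among the selected miRNAs these were ssa-miR-93a-5p in AIC replicate 4 (16.7 CPM, next 0.530), ssa-miR-20a-5p in AIC replicate 3 (31.8 CPM, next 0.474) and ssa-miR-20a-5p in AKC replicate 2 (33.4 CPM, next 6.19). The others of AKC were ssa-miR-106a-5p in replicate 5 (7.79 CPM), ssa-miR-106b-5p in replicate 2 (13.0 CPM), ssa-miR-18a-5p in replicate 6 (19.5 CPM), ssa-miR-19a-3p in replicate 1 (2.97 CPM), ssa-miR-19c-5p in replicate 5 (0.850 CPM), ssa-miR-20a-2-3p in replicate 6 (17.1 CPM) and ssa-miR-20a-3-3p in replicate 1 (11.4 CPM). In AIC, ssa-miR-18a-5p stood apart in replicate 5 with a single count (0.474 CPM), ssa-miR-19a-3p in replicate 4 (2.64 CPM) and ssa-miR-25-3p in replicate 2 (594 CPM, next 350.2).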

How the results depend on the processing

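ssa-miR-19d-5p stayed called lower in AIC under all 23 alternatives, with log2 fold changes from -10.69 to -8.84 when single libraries were left out. ssa-miR-93a-5p was also called with unscaled totals (-4.90), mapped reads (-5.11), DESeq2 with and without the filter (-4.00 each) and the permutation test (-4.69), and ran from -7.22 to -3.34 with single libraries left out, called only without AIC replicate 4. Without the filter ssa-miR-17-5p was also called with DESeq2 size factors (-10.49), unscaled totals (-10.60), mapped reads (-10.67), DESeq2 (-8.41) and the permutation test (-4.82), and ran from -10.75 to -10.02 with single libraries left out. ssa-miR-20a-5p, never called, changed sign with DESeq2 size factors (-0.35), unscaled totals (-0.78), mapped reads (-1.19), the permutation test (-0.28) and the replicate block (-0.16), ran from -5.13 to 2.04 with single libraries left out, and got no adjusted p from DESeq2. The AIC mean of its ratio to ssa-miR-92a-3p was 178% of the AKC mean, and from 2.84% without AIC replicate 3 to 716% without AKC replicate 2. That of ssa-miR-93a-5p was 15.7%, but 1.203% without AIC replicate 4. The causes of these changes were not tested. Over the table, 20 miRNAs were called, but 33 with mapped reads, 33 by DESeq2, 41 without a filter and 57 by DESeq2 without a filter. With mapped reads 9 were higher and 24 lower. By DESeq2 on the same miRNAs 17 were higher and 16 lower. Of the 8 tested cluster rows 2 were called lower, beside 7 of all 76 tested miRNAs. With unscaled totals, mapped reads and DESeq2 it was 7 of the 8, beside 20, 24 and 16 of the 76. The permutation test called 6, thinning 4 and the replicate block 4, beside 14, 9 and 10 of the 76. DESeq2 without a filter called 8 of 13 cluster rows lower, beside 23 of 134 miRNAs. With single libraries left out it was 1 to 4 of the 8. Without AKC replicate 3 it was 1, beside 6 of the 76, and without AIC replicate 3 it was 4, beside 9. The replicate block gave log2 fold changes of -10.16 (ssa-miR-19d-5p) and -6.59 (ssa-miR-93a-5p) with the same calls, and no library (0 of 6) correlated best with its own number. A count of 0 in a library allows up to 3 counts, or 0.417 to 1.59 CPM in AIC and 0.105 to 0.492 CPM in AKC.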
